A study of Mus musculus with 36 samples.

Results

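The genes described here are named for the motile cilium, the beating hair that ependymal cells carry into the ventricles of the brain. They were taken by name: every probe set annotated to a single gene whose symbol starts with Dnah, Dnai, Cfap, Rsph, Tekt or Drc followed by a number, together with Foxj1, Ccdc153, Tmem212, Spag16, Spag17 and Ttll3. This gave 54 genes of 18193 on the array, with 85 of the 34945 single-gene probe sets, and 21 of the genes had more than 1 probe set. For each gene the probe set with the highest mean in the tissue was used. The members comprise 25 Cfap genes, 10 Dnah genes, 6 Rsph genes, 5 Tekt genes, 2 Drc genes and the 6 single names. No symbol starting with Dnai and a number was found, and 2 probe sets annotated to several genes (Rsph3a with Rsph3b, and Dnah7b with Dnah7c) were left out.

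A motile cilium is built on a ring of doublet microtubules around a central pair. Dynein heavy chains (Dnah) sit on the doublets as outer and inner arms and power the beat, radial spokes (Rsph) pass signals from the central pair to the arms, and the nexin-dynein regulatory complex (Drc) ties neighbouring doublets together. Tektins (Tekt) are filaments within the doublets, and the cilia and flagella associated proteins (Cfap) fill many places, from proteins inside the microtubules to factors that assemble dynein. Foxj1 is the transcription factor that switches on this programme, and in the adult brain it is expressed mainly by ependymal cells, whose beating cilia move the cerebrospinal fluid. Ependymal cells line the ventricles and are a minor part of any dissected piece of brain. Since the members were taken by name, the signal of a member need not come from ependymal cells.

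RNA was measured on 36 Affymetrix mouse expression arrays, 12 for each of cortex, hippocampus and hypothalamus, as 12 groups of 3 animals. All mice were of the C57BL/6J strain and carried both the Camk2a-CreERT2 transgene and 2 floxed Dicer alleles. The Dicer cKO mice had received tamoxifen, 10 mg in all over 5 days from 8 weeks of age, and the control mice vehicle only, and tissue was taken 4 or 8 weeks later. Control mice thus had the same genotype but no tamoxifen, so that the drug and the recombination cannot be told apart. The Camk2a promoter is active in excitatory forebrain neurons, so that recombination was directed to these cells and not to ependymal cells. Cortex and hypothalamus came in large part from the same mice (11 animals gave both), and hippocampus came from others.

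The values are log2 intensities that the authors normalized separately for each tissue, so that levels were compared within a tissue only. Within a tissue, arrays correlated with each other at 0.982 to 0.998 over the genes tested, and no pair was identical. The cortex arrays were the most uneven. The 4-week control replicate 3 had a mean correlation of 0.984 with its group over the genes tested, and in the cortex the choice of arrays moved the counts below. Dicer1 was not called in any of the 6 comparisons of cKO with control, with differences from -0.09 to 0.10 and limma adjusted p of 0.45 and above. At 8 weeks its groups did not overlap in the cortex, with 7.782 to 7.834 in cKO above 7.712 to 7.781 in controls. In the hypothalamus at 8 weeks the cKO arrays, at 9.025 to 9.190, lay below the controls, at 9.191 to 9.219. In the remaining comparisons the groups overlapped. Its probe set is not known to lie in the deleted exon. The authors reported that Dicer mRNA seemed lower in the cKO hippocampus, by PCR of an exon outside the deleted one. On the arrays the hippocampus differences were 0.04 at both times, and the Dicer1 values thus do not check the labels. The labels name a separate animal for each array of a group. With 3 animals against 3, an exact permutation test cannot give a two-sided p under 0.1, and tests were made with limma over 15000 genes per tissue.

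The hypothalamus held the most motile cilia genes above the filter on low values, judged on the scale of each tissue. After the filter on low values, 38 members remained in the cortex, 36 in the hippocampus and 48 in the hypothalamus. Of these, 31 were tested in every tissue and 17 in the hypothalamus but not in both others. The 6 members tested in no tissue were Cfap157, Cfap221, Cfap47, Cfap97d1, Rsph6a and Spag17. Spag17, a protein of the central pair, lay between 2.16 and 2.67 in the cortex, 3.03 and 3.54 in the hippocampus and 3.23 and 3.86 in the hypothalamus. Its partner Spag16 was tested in the hypothalamus only, at 5.85, 5.94 and 5.38 in cKO and 5.71, 6.02 and 5.91 in controls at 4 weeks and 5.90, 5.88 and 5.63 against 5.97, 5.66 and 5.83 at 8 weeks. Its groups overlapped at both times. Mean log2 intensity exceeded 6 in 10 of 38 members in the cortex, 15 of 36 in the hippocampus and 31 of 48 in the hypothalamus, each on the scale of its own tissue. In bulk tissue, fewer ependymal cells and less RNA per cell cannot be told apart.

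Among the defining ependymal genes in the hypothalamus, Foxj1 lay between 6.15 and 7.08, Ccdc153, a coiled-coil protein of motile cilia, between 6.45 and 8.79, and Tmem212, a membrane protein known as an ependymal marker, between 5.88 and 9.44. In the cortex, the ranges over the 12 arrays were 4.58 to 5.05 for Foxj1, 4.76 to 6.75 for Ccdc153 and 4.71 to 6.24 for Tmem212. In the hippocampus, they were 5.77 to 6.03, 4.42 to 6.77 and 4.93 to 7.28. Ccdc153 and Tmem212 thus spread over a wide range in each tissue, whereas Foxj1 spread over less than 1 log2 unit in each. Within groups, Ccdc153 had a larger SD than 98.2% of all genes tested in the cortex, 99.5% in the hippocampus and 99.4% in the hypothalamus, and Tmem212 than 97.6%, 99.4% and 99.8%.

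**Figure D1:**
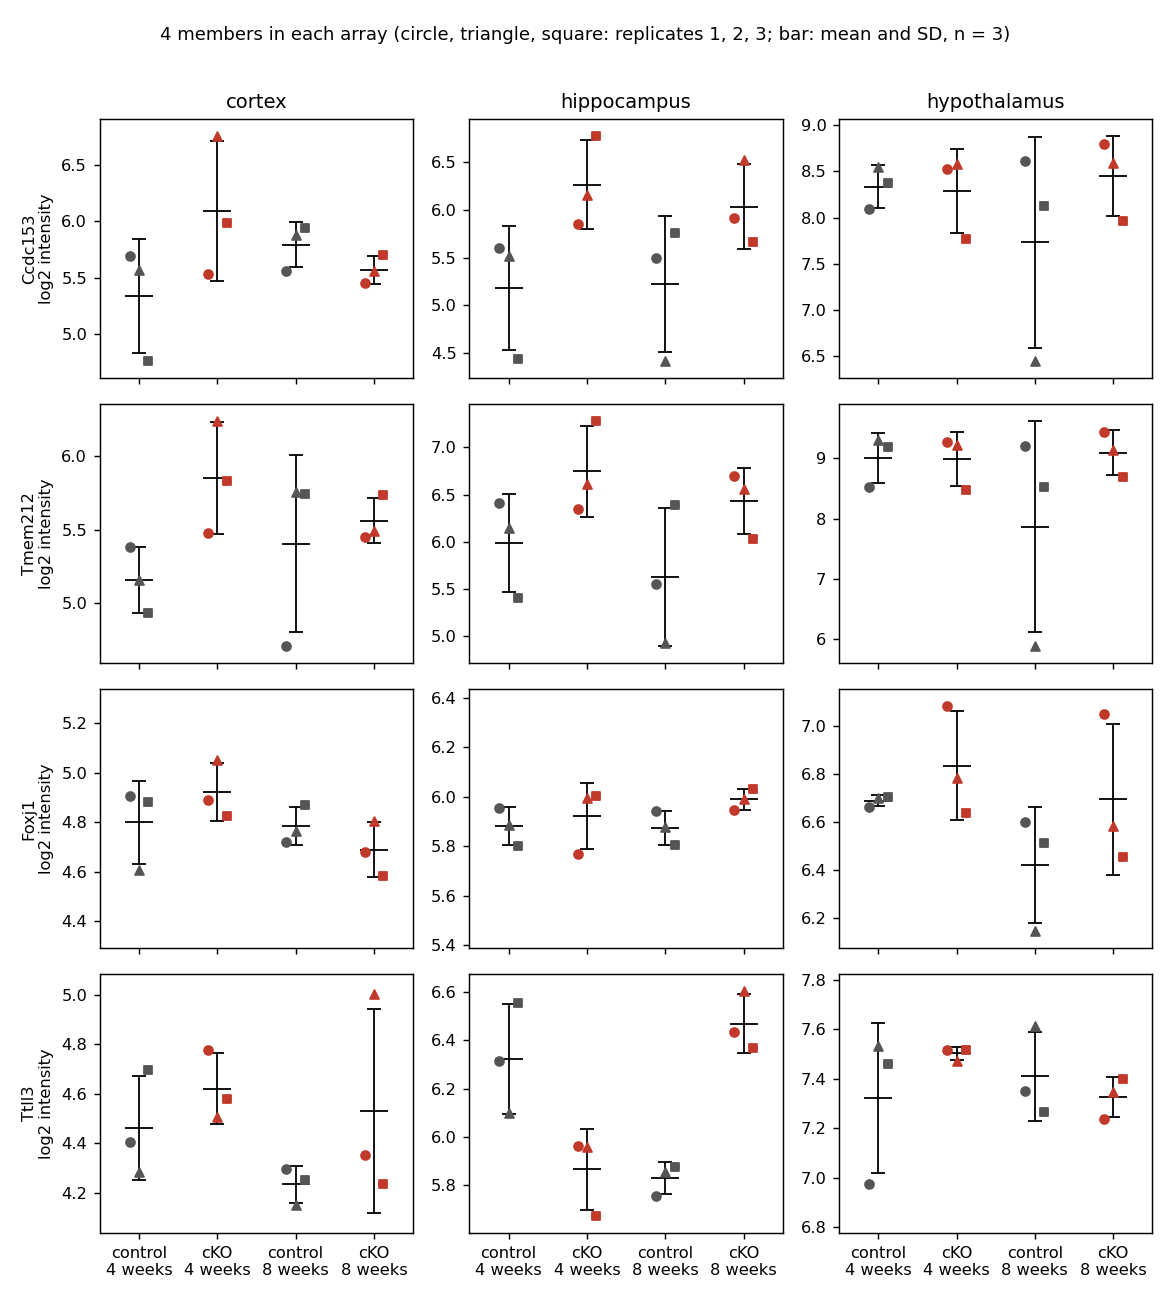
Log2 intensity (vertical axes, 1 scale per panel) of Ccdc153, Tmem212, Foxj1 and Ttll3 in each array of the 3 tissues, by group, with mean and SD of 3 animals. In the hypothalamus the 8-week control replicate 2 lies at 6.45 for Ccdc153 and 5.88 for Tmem212, apart from the other 11 arrays, and in the hippocampus the cKO arrays of Ttll3 lie below the controls at 4 weeks and above them at 8 weeks. The Ttll3 probe set of the cortex is another one than that of the hippocampus and hypothalamus.

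A single hypothalamus carried the lowest values of the strongest ependymal genes. Tmem212 was 9.20, 5.88 and 8.52 in the 8-week controls and 9.44, 9.15 and 8.69 in the 8-week cKO arrays. At 4 weeks it was 8.53, 9.31 and 9.20 in controls and 9.28, 9.22 and 8.47 in cKO arrays. The 8-week control replicate 2 thus lay far below all other arrays, and the other 11 lay within 1 log2 unit of each other. Ccdc153 was 8.62, 6.45 and 8.13 in the 8-week controls and 7.77 to 8.79 in the 9 other arrays. Cfap52, a protein inside the doublet microtubules, was 7.05, 5.79 and 6.61 in the 8-week controls, and Cfap126, which helps to position the basal bodies of cilia, was 8.14, 7.42 and 7.88. For both, replicate 2 again had the lowest value of the 12 arrays.

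Over all members, 16 of 48 (33.3%) had their lowest value in this array, against 11.5% of all genes. The next array was the 4-week cKO replicate 3, with 14 of 48 (29.2%) against 20.0% of all genes. Of the list of 5 genes of ependymal cells outside the cilium, Rarres2, Vim and Cd24a were lowest of the 8-week controls in this array. The others on the list, Mia and Hdc, are not described by array. Rarres2, which encodes the secreted protein chemerin, was 8.93, 8.05 and 8.61 in the 8-week controls and at least 8.48 elsewhere. Vim, the intermediate filament vimentin, was 9.32, 8.44 and 9.22, and Cd24a, a cell surface protein, was 9.99, 9.40 and 9.90. Most choroid plexus markers did not share the low value. Ttr, the transthyretin made by choroid plexus epithelium, was 6.94 in this array and 6.48 to 7.49 in the others, and the median deviation of the 18 choroid plexus genes tested was -0.01, although Calml4 of that list was lowest here, at 5.74 against 6.77 to 7.47. The cortex of the same mouse was not low, with Ccdc153 at 5.88 against 5.56 and 5.94 in the remaining 8-week controls and Tmem212 at 5.76 against 4.71 and 5.74. By group, 4 of the 5 ependymal genes outside the cilium were higher in cKO at 8 weeks and 1 was lower. Of 8 genes on a separate list for tanycytes, 2 were higher and 6 lower, with a median of -0.12. Whether the low hypothalamus held less ventricular wall was not tested.

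**Figure D2:**
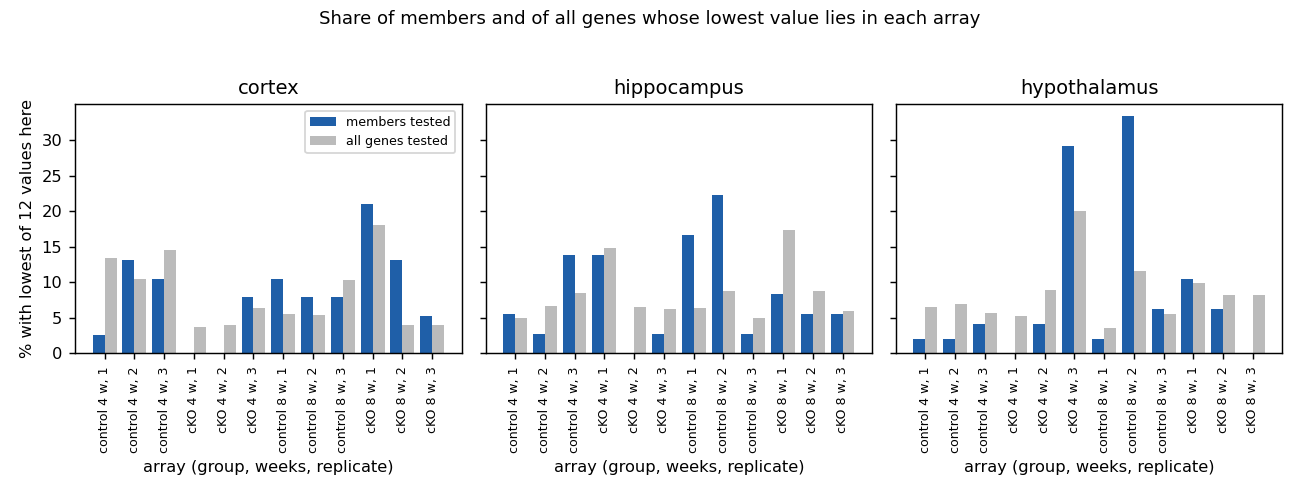
Share of genes (percent) whose lowest of 12 values lies in each array, for the members tested and for all genes tested, in the 3 tissues. In the hypothalamus the 8-week control replicate 2 holds the lowest value of 33.3% of the members and of 11.5% of all genes.

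More members followed Ccdc153 from array to array in the hypothalamus than in the hippocampus or the cortex, while the median correlation over all pairs of members was low in each tissue, at 0.22, 0.15 and 0.19. Ccdc153 was chosen as the gene to follow after its values were seen. The deviations from the group means over 12 arrays are described, without a test, since the points share arrays, group means and normalization. Of 47 other members, 23 correlated with Ccdc153 above 0.5 in the hypothalamus, which is 48.9% against 18.9% of all other genes. The number was 11 of 35 in the hippocampus (31.4% against 10.9%) and 5 of 37 in the cortex (13.5% against 9.81%). Tmem212 followed Ccdc153 with a correlation of 0.98 in the hypothalamus, 0.90 in the hippocampus and 0.75 in the cortex. Without the low hypothalamus array, 19 of 47 members (40.4%) exceeded 0.5 against 17.5% of all genes, and Tmem212 still stood at 0.95. Foxj1 followed Ccdc153 at 0.77, 0.40 and 0.17 in hypothalamus, hippocampus and cortex. Cfap36, the brightest member in the hippocampus, stood at 0.40, 0.03 and 0.16 in the same order, and Cfap20 at -0.05, 0.01 and -0.47.

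The members that followed Ccdc153 in the hypothalamus came from several parts of the axoneme. Cfap52 had a correlation of 0.97, Cfap126 of 0.96, Dnah6, an inner arm dynein, of 0.96, and Spag16, a central pair protein, of 0.77. Drc3 of the regulatory complex stood at 0.92, Rsph1 of the radial spokes at 0.89, Dnah9, an outer arm dynein, at 0.81 and Tekt1 at 0.69. Others did not follow it or moved the other way, the latter most in Dnah1 at -0.82 and Tekt3 at -0.63. Rsph9, a radial spoke head protein, stood at 0.11, Dnah7a, an inner arm dynein, at -0.26 and Ttll3, an enzyme that adds glycine to ciliary tubulin, at -0.33. In the hypothalamus, the genes nearest to the median deviation of the members included Enkur (0.99), Meig1 (0.97) and Capsl (0.97), each on the list of other motile cilia genes, besides Ergic2 (0.99) and Plppr5 (0.98). In the cortex they were led by Dusp4, Tfg and Smad3 (0.96 to 0.97) and in the hippocampus by Spaca3 and Cdkn2aipnl (0.95 and 0.92), and none of the 10 nearest in these tissues was on that list.

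**Figure D3:**
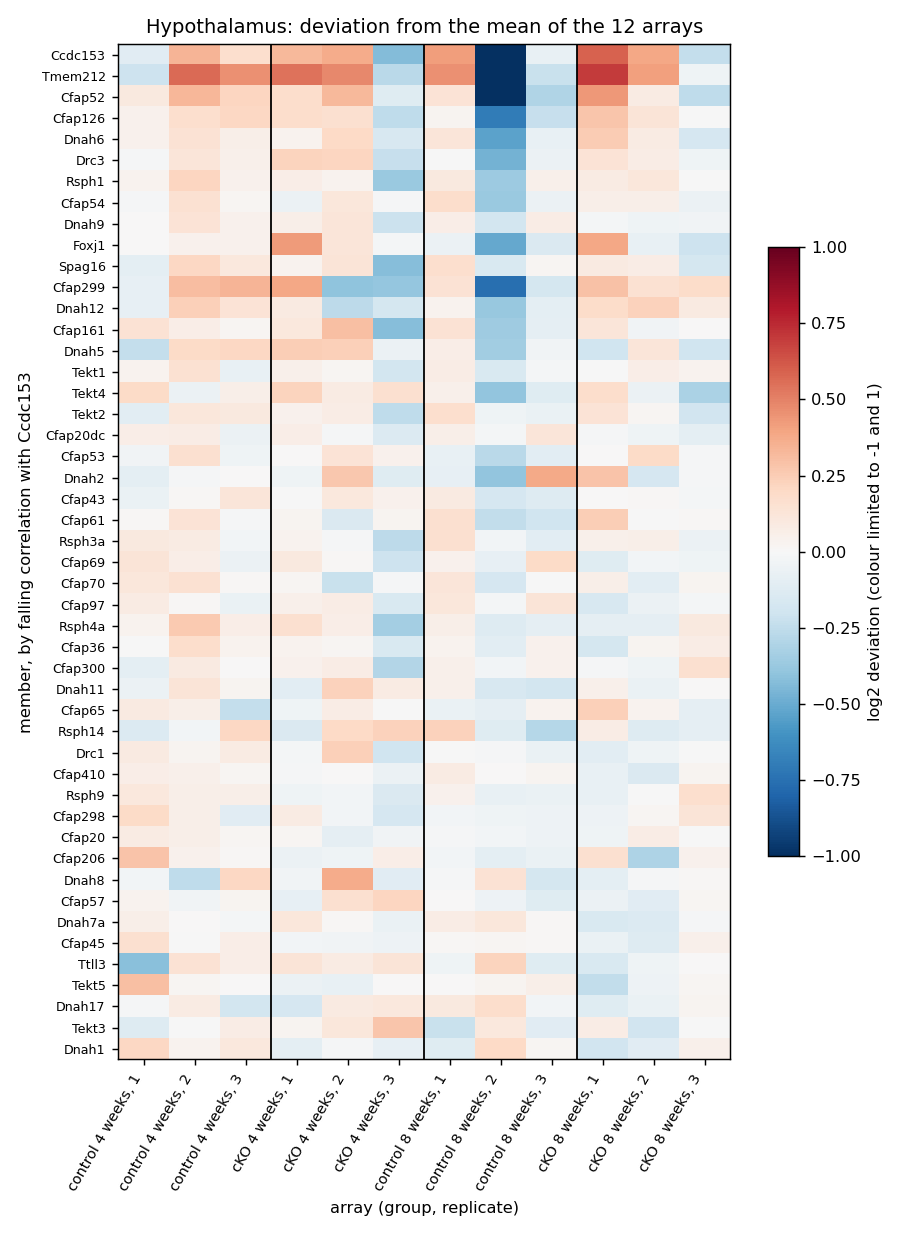
Deviation of each of the 48 members tested (rows) from its mean over the 12 hypothalamus arrays (columns), in log2 units, ordered by correlation with Ccdc153. The upper rows are blue in the 8-week control replicate 2, and the last rows, among them Ttll3, Tekt3 and Dnah1, are not.

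The promoters of these members are shown because Ccdc153 and Tmem212 moved together while Ttll3 did not. Ciliary genes are known to be switched on by RFX factors, which bind the X-box, and by Foxj1, a forkhead factor. The windows of 300 bases around the start of each gene come from RefSeq (GRCm38.p6) and run 5′ to 3′ on the strand of the gene. Of the 54 members, 45 had an entry. The letters searched on both strands were the RFX half-site GTTGCC, the forkhead motif GTAAACA and the X-box, an inverted repeat of 2 degenerate half-sites of 6 bases set 2 bases apart. A half-site can lie within an X-box. Capitals mark any of these matches.
Ccdc153, chr9:44240427-44240726, plus strand: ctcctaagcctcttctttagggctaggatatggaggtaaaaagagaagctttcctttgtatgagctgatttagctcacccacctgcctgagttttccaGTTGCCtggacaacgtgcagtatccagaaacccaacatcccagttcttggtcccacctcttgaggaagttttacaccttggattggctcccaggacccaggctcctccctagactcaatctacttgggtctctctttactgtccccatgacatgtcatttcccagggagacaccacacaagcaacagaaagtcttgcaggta
Tmem212, chr3:27896319-27896618, minus strand: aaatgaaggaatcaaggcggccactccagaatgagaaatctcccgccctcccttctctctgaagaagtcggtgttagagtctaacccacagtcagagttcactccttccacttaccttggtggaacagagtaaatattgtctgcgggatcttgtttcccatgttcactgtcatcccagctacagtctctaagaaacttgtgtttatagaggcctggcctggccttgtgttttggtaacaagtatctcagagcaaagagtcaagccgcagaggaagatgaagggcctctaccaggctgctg
Ttll3, chr6:113389010-113389309, plus strand: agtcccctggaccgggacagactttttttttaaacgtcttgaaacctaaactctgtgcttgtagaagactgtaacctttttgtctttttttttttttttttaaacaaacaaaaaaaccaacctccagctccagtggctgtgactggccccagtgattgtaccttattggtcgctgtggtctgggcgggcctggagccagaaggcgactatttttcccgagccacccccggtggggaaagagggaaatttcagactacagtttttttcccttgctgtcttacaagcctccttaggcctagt
Spag16, chr1:69826720-69827019, plus strand: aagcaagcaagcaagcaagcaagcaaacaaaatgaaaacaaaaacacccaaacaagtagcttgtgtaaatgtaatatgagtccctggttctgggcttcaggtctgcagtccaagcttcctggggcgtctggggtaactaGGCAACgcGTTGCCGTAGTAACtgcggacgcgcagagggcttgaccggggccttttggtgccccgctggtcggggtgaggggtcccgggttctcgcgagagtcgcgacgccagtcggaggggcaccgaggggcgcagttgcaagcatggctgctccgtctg

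Spag16 is shown as a promoter with an X-box match, which holds 1 of its 2 half-sites. Ccdc153 held 1 half-site, and Tmem212 and Ttll3 held none of the letters searched in this window. Among the members, 12 of 45 (26.7%) had a half-site against 12.7% of all 27025 promoters, 5 (11.1%) had an X-box match against 1.14%, and 4 (8.89%) had the forkhead letters against 3.55%. The X-box matches lay in Cfap20dc, Cfap298, Cfap45, Dnah2 and Spag16. A match is a description of the letters and does not show that a factor binds there.

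In the hippocampus the motile cilia genes leaned towards higher values in cKO mice at both times, but no member passed the FDR of 15%. At 4 weeks 28 of 36 members were higher in cKO, with a median difference of 0.12 against 0.02 over all genes, and at 8 weeks 26 of 36, with 0.11 against -0.02. The limma test called 0 members and 0 of all genes (0% of 15000) at either time. At an unadjusted p under 0.05 there were 8 of 36 members (22.2%) against 4.73% of all genes at 4 weeks, of which 7 were higher. At 8 weeks there were 8 of 36 against 5.97%, of which 6 were higher. All 3 cKO arrays lay above all 3 controls in 5 members at 4 weeks (13.9% against 6.15% of genes) and in 6 at 8 weeks (16.7% against 5.16%). The reverse held in 1 member (2.78% against 3.17%) and in 3 (8.33% against 8.56%).

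The 2 times rest on different mice. Of the 36 members, 26 had the same sign at 4 and 8 weeks (72.2% against 49.0% of all genes), and 22 were higher in cKO at both (25.0% of all genes were). At the single times 28 and 26 of the 36 were higher, against 57.1% and 43.8% of all genes. The shared signs follow in large part from these counts and are not a separate result. Most of the members were not among the brightest genes. Of the 10000 brightest genes only 7 were members. None of these 7 had a p under 0.05 at either time, against 4.16% and 6.33% of the 10000 genes. At 4 weeks all 7 were higher in cKO, with a median of 0.08 against 0.02 over the 10000 genes. At 8 weeks 3 of these 7 were higher in cKO, with a median of -0.06. With no filter on low values the median over all 54 members was 0.12 at 4 weeks and 0.04 at 8 weeks.

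Ccdc153 showed the largest difference in the hippocampus at 4 weeks. The cKO arrays stood at 5.85, 6.16 and 6.77 and the controls at 5.60, 5.51 and 4.44, a difference of 1.08 (SE 0.39, adjusted p = 0.99, rank 252 of 15000 genes by p). All cKO values lay above all controls, and replicate 3 was the extreme of both groups. Without the control replicate 3 the difference was 0.70. At 8 weeks the cKO arrays stood at 5.92, 6.52 and 5.66 and the controls at 5.49, 4.42 and 5.76, and the groups overlapped. The difference was 0.81, and 0.41 without the control replicate 2. Tmem212 was 6.70, 6.56 and 6.03 in cKO at 8 weeks and 5.55, 4.93 and 6.39 in controls, a difference of 0.81 (SE 0.37, adjusted p = 0.80), also with overlap. Without the control replicate 2 it was 0.46. Foxj1 was 5.77, 6.00 and 6.00 in cKO and 5.96, 5.89 and 5.80 in controls at 4 weeks, and 5.95, 5.99 and 6.03 against 5.94, 5.88 and 5.81 at 8 weeks. Its differences were 0.04 (SE 0.08) and 0.12 (SE 0.08), with overlap at 4 weeks and none at 8 weeks.

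Dnah6 and Cfap126 were the members with a p under 0.05 and the same direction at both times. The share of all genes that did so was not counted. Dnah6 was 4.86, 4.81 and 5.15 in cKO and 4.51, 4.67 and 4.74 in controls at 4 weeks, and 4.92, 4.98 and 4.91 against 4.46, 4.66 and 4.71 at 8 weeks. Its differences were 0.30 (SE 0.10) and 0.33 (SE 0.10), at rank 173 and 81 of 15000 genes by p, and the groups did not overlap at either time. Cfap126 differed by 0.28 (SE 0.11) and 0.32 (SE 0.11). At 8 weeks its cKO arrays, at 6.52, 6.69 and 6.47, lay above the controls, at 6.16, 6.18 and 6.39. The adjusted p was above 0.7 for all of these. Without the 4-week cKO replicate 3 the 4-week differences of Dnah6 and Cfap126 were 0.19 and 0.23. Their unadjusted limma p was then 0.060 and 0.089, so that neither kept a p under 0.05 at both times. Without the 8-week control replicate 2 the 8-week differences were 0.35 and 0.28.

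Genes of the regulatory complex were higher in cKO mice at 4 weeks without passing the test. Drc3 was 6.69, 6.79 and 7.09 in cKO and 6.39, 6.47 and 6.42 in controls, a difference of 0.43 (SE 0.10, adjusted p = 0.99, rank 16 of 15000 genes by p), and Drc1 differed by 0.20. Both had all cKO arrays above all controls. At 8 weeks Drc3 differed by -0.01, with 6.39, 6.50 and 6.68 against 6.57, 6.46 and 6.57. Dnah7a went the other way at 8 weeks, at 6.17, 6.29 and 6.48 in cKO and 6.64, 6.51 and 7.05 in controls, a difference of -0.42 (SE 0.14, adjusted p = 0.80). Cfap300, a factor of dynein assembly, differed by -0.30 and Tekt1 by 0.56 at the same time. Among the brightest members of the other families, Cfap36 was 10.03, 10.10 and 9.98 in cKO and 9.97, 9.85 and 10.01 in controls at 4 weeks, and 9.97, 10.06 and 10.02 against 10.07, 10.01 and 10.13 at 8 weeks. Rsph9 was 7.08, 7.45 and 7.70 against 7.35, 7.42 and 7.37, and 7.74, 7.41 and 7.31 against 7.54, 7.08 and 7.51. Both overlapped at both times. Tekt5 was 7.36, 7.68 and 7.65 against 7.58, 7.61 and 6.90 at 4 weeks, and at 8 weeks 7.22, 7.59 and 7.51 against 7.84, 7.86 and 7.63, the cKO arrays all lower.

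By family, 4 of 4 Rsph members were higher in cKO at both times, with medians of 0.19 and 0.15, and 5 of 6 Dnah members, with a median of 0.14 at each time. Cfap members were higher in 11 of 15 at 4 weeks and 9 of 15 at 8 weeks, with medians of 0.09 and 0.03.

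The 4-week cKO replicate 3 carried much of the 4-week result. It held the highest value of 13 of 36 members (36.1%), against 14.8% of all genes. Without it 25 of 36 members were higher in cKO and the median difference was 0.06. A p under 0.05 then held in 2 members (5.56% against 6.01% of genes), Drc3 at 0.31 and Ttll3 at -0.36. At 8 weeks the control replicate 2 held the lowest value of 8 members (22.2% against 8.79% of genes). Without this array 20 of 36 members were higher in cKO, with a median of 0.09, and 5 had a p under 0.05 (13.9% against 4.33% of genes). Leptomeningeal genes moved the other way at 4 weeks, with 23 of 25 lower in cKO, 10 of them at a p under 0.05, and a median of -0.44, and all 11 microglial genes were lower, with a median of -0.36. The ependymal genes outside the cilium had medians of 0.08 and 0.14 at the 2 times, and those of the choroid plexus 0.04 and 0.07. The part of dissection in these values was not tested.

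Ttll3 turned its direction between the times in the hippocampus. At 4 weeks the cKO arrays stood at 5.96, 5.96 and 5.67 and the controls at 6.31, 6.10 and 6.55, a difference of -0.46 (SE 0.12, adjusted p = 0.99, rank 29 of 15000 genes by p). At 8 weeks the order had turned, to 6.44, 6.60 and 6.37 for cKO and 5.75, 5.85 and 5.88 for controls, a difference of 0.64 (SE 0.12, adjusted p = 0.77, rank 3). The groups did not overlap at either time, and cKO mice were the lower ones first and the higher ones later. The interaction of time and treatment was 1.10 (SE 0.17, adjusted p = 0.40). It ranked 1 of 15000 genes by p and missed the threshold. With each array left out in turn it stayed between 0.98 and 1.21 and passed once, without the 4-week control replicate 2, at an adjusted p of 0.125. From 4 to 8 weeks the controls differed by -0.49 and the cKO mice by 0.60.

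The array holds 3 probe sets of Ttll3, and the other 2 had interactions of 0.11 (SE 0.18) and -0.09 (SE 0.13) in the hippocampus. In the cortex, which came from other mice, the probe set used for the hippocampus was 3.28, 3.72 and 4.64 in cKO and 4.35, 4.36 and 4.08 in controls at 4 weeks, and 4.32, 4.25 and 3.98 against 3.88, 3.94 and 3.33 at 8 weeks. Its interaction there was 0.85 (SE 0.38), not corrected for other genes, on a dim signal, with overlap at 4 weeks and none at 8 weeks. In the hypothalamus it was -0.26 (SE 0.19), with values of 7.52, 7.47 and 7.52 against 6.97, 7.53 and 7.46 at 4 weeks and 7.24, 7.35 and 7.40 against 7.35, 7.61 and 7.27 at 8 weeks. The probe set used in the cortex was 4.78, 4.50 and 4.58 in cKO and 4.40, 4.29 and 4.70 in controls at 4 weeks, and 4.35, 5.0 and 4.24 against 4.30, 4.15 and 4.25 at 8 weeks, with overlap at both. Over all members, the interaction was called for 0 of 36 in the hippocampus (0% of genes), with 3 at a p under 0.05 (8.33% against 5.78% of genes), which were Ttll3, Drc3 and Dnah7a.

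In the cortex at 4 weeks most members were higher in cKO mice, as were most genes. The difference was above 0 in 33 of 38 members with a median of 0.17, and in 74.5% of all genes with a median of 0.12. The FDR of 15% was passed by 3 of 38 members (7.89%), all higher, against 8.39% of all genes, and 11 (28.9%) had an unadjusted p under 0.05 against 21.5%. All cKO arrays lay above all controls in 9 members (23.7% against 17.7% of genes), and below them in 0 (2.3% of genes). The share of members called was thus near that of all genes. When each array was centred on its median, which takes away the shift of all genes, the median member difference was 0.04 and 0 members were called.

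The called members were Rsph9, Dnah7a and Cfap52, whose correlations with Ccdc153 in the cortex were -0.11, -0.51 and 0.61. Rsph9 was 7.65, 7.64 and 7.62 in cKO and 7.13, 7.24 and 7.25 in controls, a rise of 0.43 (SE 0.11, adjusted p = 0.0988). Dnah7a was 6.37, 6.05 and 6.00 against 5.78, 5.57 and 5.87, a rise of 0.40 (SE 0.13, adjusted p = 0.13). Neither overlapped between groups, and after centring the differences were 0.30 and 0.27 with adjusted p of 0.22 and 0.28. Cfap52 was 5.67, 5.99 and 5.39 against 5.41, 5.36 and 5.09, a difference of 0.40 that overlapped and had an adjusted p of 0.15, at the threshold. Without the 4-week cKO replicate 2 the Cfap52 difference was 0.25.

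Ccdc153 and Tmem212 had the largest differences without being called. Ccdc153 was 5.53, 6.75 and 5.99 in cKO and 5.69, 5.57 and 4.76 in controls, a difference of 0.75 (SE 0.28, adjusted p = 0.17) with overlap. It was 0.42 without the cKO replicate 2 and 0.46 without the control replicate 3, and it passed the threshold in 1 omission, that of the cKO replicate 3, at 0.80. Tmem212 was 5.48, 6.24 and 5.83 against 5.38, 5.16 and 4.93, a difference of 0.69 (SE 0.26, adjusted p = 0.17) without overlap. Foxj1 differed by 0.12 (SE 0.11), at 4.89, 5.05 and 4.83 against 4.91, 4.61 and 4.88. Cfap206, a protein of the radial spoke base, had the lowest difference, -0.31, with values of 3.75, 4.00 and 3.71 against 4.16, 3.96 and 4.27, and was not called. All 5 Rsph members were higher in cKO (median 0.20), as were 6 of 8 Dnah members (0.19) and 14 of 16 Cfap members (0.16). The brightest, Cfap36, was 9.42, 9.28 and 9.12 against 9.23, 9.22 and 8.98, with overlap.

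The choice of arrays moved the cortex counts. Without any 1 of the 4-week cKO replicates 1 and 2 and the 4-week control replicates 1 and 2, 0 members and 6 to 126 of 15000 genes were called. Without replicate 3 of either 4-week group there were 9 members, beside 2981 genes without the cKO array and 6373 without the control array. Without any 1 of the 8-week arrays there were 1 to 3 members and 397 to 1599 genes. Without the 4-week cKO replicate 3, the 4-week control replicate 3 and the 8-week cKO replicate 2 together, an omission chosen after seeing the data, there were 17 members and 8208 genes. Leptomeningeal genes moved with the group, with 15 of 25 called higher and a median of 0.55. Vim was called higher at 0.48, and the other 4 ependymal genes outside the cilium were not called. Their part in the members' values was not tested.

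At 8 weeks the cortex showed no difference in the motile cilia genes that passed the test. The limma test called 0 of 38 members and 0% of all genes, and 0 members had a p under 0.05 against 4.69% of genes. The median difference was -0.02, and 24 of 38 members were lower in cKO. All cKO arrays lay above all controls in 1 member (2.63% against 6.93% of genes), Dnah2, and below them in 2 (5.26% against 7.16%), Cfap20 and Cfap43. The lowest p belonged to Dnah11, an outer arm dynein, at 5.17, 5.09 and 5.43 in cKO and 5.38, 5.22 and 6.28 in controls, a difference of -0.39 (SE 0.21, adjusted p = 0.94), in which control replicate 3 lay apart and the groups overlapped. Dnah2, an inner arm dynein, was 4.24, 4.44 and 4.30 against 4.03, 4.16 and 4.15, and Cfap57 was 5.53, 5.87 and 5.65 against 5.45, 5.34 and 5.66. Ccdc153 was 5.45, 5.56 and 5.70 in cKO and 5.56, 5.88 and 5.94 in controls, and Foxj1 was 4.68, 4.80 and 4.58 against 4.72, 4.77 and 4.87, both with overlap. The interaction with time was called for 0 of 38 members, against 0.00667% of genes, and had a p under 0.05 in 4 (10.5% against 9.73%), among them Ccdc153 at -0.97 and Dnah7a at -0.44.

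Within cKO mice the cortex values of the members were lower at 8 than at 4 weeks in 35 of 38, with a median of -0.23 against -0.10 over all genes. None was called (1.24% of genes were), and 14 (36.8%) had a p under 0.05 against 19.6% of genes, of which 13 were lower. Within controls, 0 members and 0% of genes were called, and 1 member (2.63% against 5.17%) had a p under 0.05. In the hippocampus, the change with time was called for 0 members and 0% of genes in either state, with 4 at a p under 0.05 within controls (11.1% against 5.05%) and 4 within cKO (11.1% against 5.45%). In the hypothalamus it was also called for 0 members and 0% of genes, with 2 within controls (4.17% against 1.82%) and 1 within cKO (2.08% against 8.59%). Time after injection goes with age in these mice.

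In the hypothalamus at 4 weeks no motile cilia gene passed the limma test. It called 0 of 48 members (0% of genes), and 0 had a p under 0.05 against 2.73% of genes. The median difference was -0.06 against -0.02 over all genes, and 32 of 48 members were lower. All cKO arrays lay below all controls in 5 members (10.4% against 4.62% of genes) and above them in 0 (2.35% of genes). These 5 were Cfap410, Cfap45, Dnah1, Rsph9 and Tekt5. Rsph9 was 9.30, 9.31 and 9.19 in cKO and 9.44, 9.40 and 9.40 in controls, a difference of -0.15 (SE 0.07, adjusted p = 1.00). Dnah1, an inner arm dynein, was 8.32, 8.41 and 8.34 against 8.63, 8.46 and 8.52, a difference of -0.18. Cfap45, a protein inside the doublets, was 5.81, 5.80 and 5.79 against 6.00, 5.84 and 5.90, and Tekt5 was 7.34, 7.33 and 7.41 against 7.70, 7.42 and 7.41. All 4 lay lower in each cKO array than in any control, Tekt5 by less than the rounding. Foxj1, at 7.08, 6.78 and 6.64 against 6.66, 6.70 and 6.71, overlapped.

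At 8 weeks the largest hypothalamus differences rested on the low control array. The limma test called 0 of 48 members (0% of genes), and 4 had a p under 0.05 (8.33% against 7.27% of genes), namely Cfap126, Dnah7a, Dnah12 and Cfap53. Tmem212 differed by 1.23 and Ccdc153 by 0.72, and without the 8-week control replicate 2 by 0.23 and 0.08. Cfap126 was 8.39, 8.24 and 8.11 in cKO and 8.14, 7.42 and 7.88 in controls, a difference of 0.43 (SE 0.17, adjusted p = 0.53), and 0.24 without that array. The median over the members was 0.03, and -0.00 without it, when 24 of 48 were higher and 1 had a p under 0.05 (2.08% against 6.37% of genes). All cKO arrays lay above all controls in 3 members (6.25% against 5.31%) and below them in 2 (4.17% against 7.83%).

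Dnah7a was lower in cKO at 8 weeks also here, at 7.24, 7.26 and 7.39 against 7.47, 7.51 and 7.41, a difference of -0.16 (SE 0.06, adjusted p = 0.54). Its groups did not overlap. Dnah12, an inner arm dynein, was 5.13, 5.17 and 5.03 in cKO and 4.98, 4.57 and 4.85 in controls, a difference of 0.31 that was 0.20 without the low array. Foxj1 was 7.05, 6.58 and 6.45 against 6.60, 6.15 and 6.51, with overlap. Microglial genes moved with the group, since 10 of 11 were higher in cKO at a p under 0.05 with a median of 1.33. They were high in 2 of the 3 cKO arrays, with median deviations of 1.91, 1.34 and -0.15. The interaction with time was called for 0 of 48 members (0% of genes), and 3 had a p under 0.05 (6.25% against 4.71%).

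**Figure D4:**
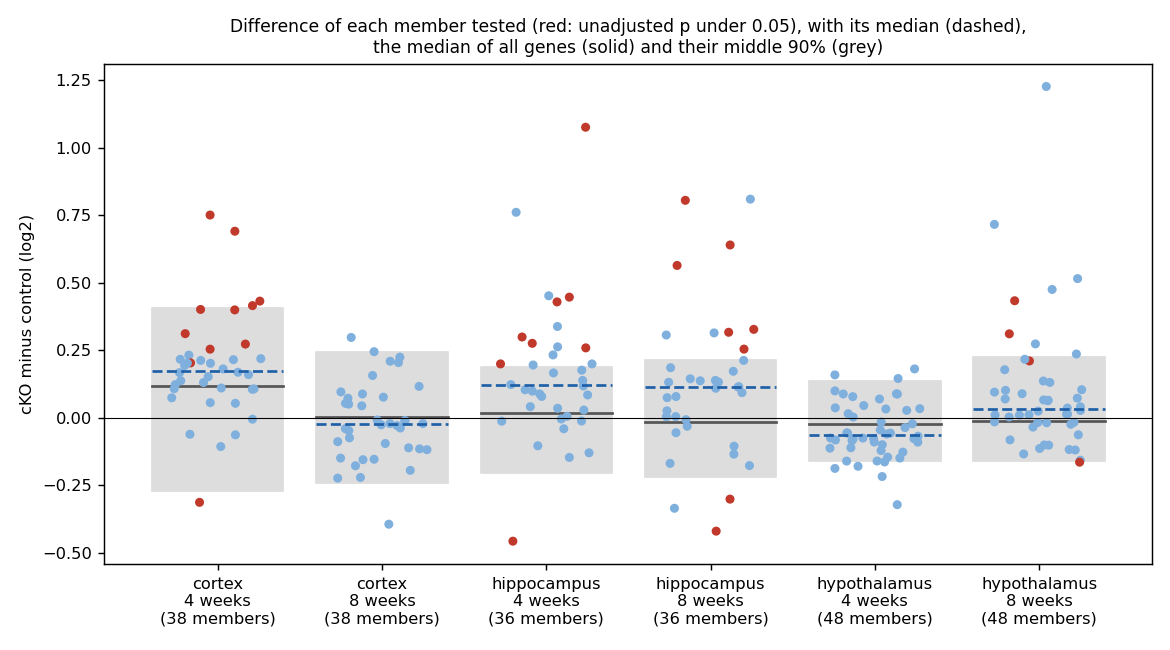
Difference of cKO minus control (log2) of each member tested in the 6 comparisons, with the median of the members (dashed), the median of all genes (solid) and the middle 90% of all genes (grey). The members' median lies above that of all genes in both hippocampus comparisons (0.12 against 0.02 and 0.11 against -0.02), and in the cortex at 4 weeks both are raised (0.17 and 0.12).

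The differences between cKO and control were compared between tissues, gene by gene, with the probe set of the highest mean over both tissues. At 4 weeks the difference in the cortex exceeded that in the hypothalamus in 5 of 38 members at an FDR of 15% (13.2% against 15.9% of genes), and 7 had a p under 0.05 (18.4% against 24.4%). Rsph9 led with 0.58 (SE 0.13, adjusted p = 0.0504), and Dnah7a, Cfap410, Cfap20dc and Cfap20 followed with 0.40, 0.33, 0.37 and 0.22. For Cfap410 and Cfap20 the tests within each tissue used different probe sets, with differences at 4 weeks of 0.15 in the cortex and -0.07 in the hypothalamus for Cfap410, and of 0.07 and -0.09 for Cfap20. Between hippocampus and cortex at 4 weeks 0 of 31 members were called (1.34% of genes), with 1 at a p under 0.05 (3.23% against 13.1%). The other 4 comparisons, hippocampus with hypothalamus at both times and either with cortex at 8 weeks, called 0 members and 0% of genes. At a p under 0.05 there were 3 of 36 members for hippocampus and hypothalamus at 4 weeks (8.33% against 4.71%) and 3 at 8 weeks (8.33% against 8.33%). There was 1 of 31 for hippocampus and cortex at 8 weeks (3.23% against 3.53%) and 1 of 38 for cortex and hypothalamus at 8 weeks (2.63% against 6.43%). Ttll3 had the lowest p among the members between hippocampus and hypothalamus, with -0.64 at 4 weeks and 0.72 at 8 weeks, neither called.

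The other genes of the cilium were followed with lists outside the name rule. In the hippocampus at 4 weeks 43 of 52 other motile cilia genes were higher in cKO, 9 of them at a p under 0.05, with a median of 0.11. Of all genes, 57.1% were higher and 4.73% had a p under 0.05 in either direction. They were led by Ak7, an adenylate kinase of cilia, at 0.42, Odf3b at 0.41 and Ccdc65, a subunit of the regulatory complex, at 0.41, none of them called. At 8 weeks the same list was split evenly, 26 higher and 26 lower, with a median of -0.00. Ak7 was again the lowest by p, at 0.51, and was not called. In the cortex at 4 weeks 6 of 54 were called higher and 2 lower, with Enkur at 0.61 (adjusted p = 0.0742) in the lead, where 8.39% of all genes were called and 74.5% were higher. In the hypothalamus 49 of 63 were lower at 4 weeks and 44 of 63 higher at 8 weeks, with 2 lower and 3 higher at a p under 0.05, and none was called. Of all genes, 38.5% were higher at 4 weeks and 44.8% at 8 weeks, and 2.73% and 7.27% had a p under 0.05.

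Cilia regulators, among them Rfx1, Rfx2 and Rfx3, and dynein assembly factors had 0 genes called in any of the 6 comparisons. Of all genes, 8.39% were called in the cortex at 4 weeks and 0% in the other comparisons. At a p under 0.05, 1 of 10 regulators and 3 of 10 assembly factors were higher in the cortex at 4 weeks. Of the assembly factors, 2 of 10 were lower in the cortex at 8 weeks and 1 of 11 in the hypothalamus at 4 weeks. Of all genes, 21.5%, 4.69% and 2.73% had such a p in these comparisons, in either direction. Genes of intraflagellar transport and the BBSome, which also serve the primary cilia of neurons, were higher in 35 of 40 in the cortex at 4 weeks. There 74.5% of all genes were higher. Of the 40 genes 1 was called, against 8.39% of all genes, and the median was 0.13, close to the 0.12 of all genes. In the hypothalamus at 4 weeks 37 of 40 of them were lower, with a median of -0.07 against -0.02 over all genes. Of all genes 38.5% were higher there. Of these 40, 0 were called (0% of genes) and 3 had a p under 0.05, against 2.73% of genes. Tubulin glycylases and glutamylases other than Ttll3 had 0 called in each tissue. At a p under 0.05, 1 of 14 was lower in the cortex at either time (21.5% and 4.69% of genes at 4 and 8 weeks). In the hippocampus 1 of 14 was higher at 8 weeks (5.97% of genes).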

How the data were processed

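Total RNA of 36 tissue samples was hybridized to Affymetrix mouse expression arrays. The authors normalized and summarized the arrays of each tissue separately with RMA (version not given in the sources used here), and the deposited values are log2 intensities per probe set, used here as they are. Detection calls were not used. Probe sets were named through the platform annotation. Per gene the single-gene probe set with the highest mean in the tissue was taken, genes were ranked by the third-highest of 12 values, and 15000 were kept, down to a log2 value of 3.99 in the cortex, 4.25 in the hippocampus and 4.88 in the hypothalamus.

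limma 3.58.1 (R 4.3.3) fitted the 4 groups of each tissue together and gave differences, SE and two-sided p-values, with Benjamini-Hochberg adjustment over all genes tested and an FDR of 15%. Differences between cortex and hypothalamus used the probe set with the highest mean over both tissues and the animal as a block (duplicateCorrelation, statmod 1.5.0, correlation 0.161). The number of arrays limits the precision. The pipeline was tested on simulated data.

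The members, lists and tests were chosen with earlier results of these data known. Values in each array are given for the 6 single names, for members of each family by mean in the hippocampus, and for the 3 members with the lowest p in each comparison. Further examples were picked with their values in view. Cilia lists and cell type lists (ependymal genes outside the cilium, tanycytes, choroid plexus, leptomeninges, microglia) are described by counts. Alternatives were other filters, probe sets, scalings, variance models, tests and thresholds, a replicate block and the omission of each array. The labels do not pair cKO with control arrays. Deviations of like-numbered cKO and control arrays were compared, and they correlated above 0.1 for each of the 3 numbers only in the 8-week hypothalamus (0.197, 0.259 and 0.296).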

Additional observations from a re-analysis of the deposited data

Results flagged for a closer look

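In 5 members the difference between cKO and control at 4 weeks differed between cortex and hypothalamus by the test of the difference itself, with the animal as a block. This is 5 of 38 members (13.2%) against 15.9% of all genes. Each gene was taken with the probe set of the highest mean over both tissues. The values, cortex minus hypothalamus on the log2 scale, were 0.58 for Rsph9 (adjusted p = 0.0504), 0.40 for Dnah7a (adjusted p = 0.0920), 0.33 for Cfap410 (adjusted p = 0.0949), 0.37 for Cfap20dc (adjusted p = 0.12) and 0.22 for Cfap20 (adjusted p = 0.13), by limma. In Rsph9 all 3 cKO arrays lay above the controls in the cortex and below them in the hypothalamus. For Cfap410 and Cfap20 the tests within each tissue used different probe sets, with 0.15 in the cortex and -0.07 in the hypothalamus for Cfap410, and 0.07 and -0.09 for Cfap20. Without the block for shared animals, Rsph9 alone was called.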

How the results depend on the processing

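Of the results recomputed under other settings, 1153 values kept their direction and their side of the threshold or moved little, 109 moved, 42 lost and 5 gained a call, and 9 reversed. The number of arrays and, for dim genes, the signal over background limit these results.

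Of the 3 members called in the cortex at 4 weeks, 1 was left with the highest-variance probe set, beside 654 of 15000 genes. With 10000 genes, 1 of the 9 members tested was called, beside 941 genes. Centred arrays, quantile normalization, only the 6 arrays compared, the methods' t-test or an FDR of 5% left 0, beside 1 to 111 of 15000 genes. Array weights gave 22, beside 8580 of 15000 genes. Without the 4-week replicate 3 of both groups and the 8-week cKO replicate 2, chosen after seeing the data, there were 17 and 8208 genes. The 11 members with an unadjusted p under 0.05 became 2 with 10000 genes, 3 with centring, 4 with quantile normalization and 3 by the methods' t-test. The median difference of all members tested was 0.0386 with centring, 0.0596 with quantile normalization, 0.26 with array weights and 0.28 without these 3 arrays. In the cortex at 8 weeks the median was -0.11 with 10000 genes. There the count at an unadjusted p under 0.05 was 3 with array weights (7.89% against 10.4% of genes), 1 with only 6 arrays (2.63% against 7.79%) and 2 by the methods' t-test (5.26% against 5.69%). In the hippocampus it was 0 of the 7 tested with 10000 genes at both times (4.16% and 6.33% of genes). By the methods' t-test it was 2 at 4 weeks (5.56% against 3.97%) and 5 at 8 weeks (13.9% against 6.21%). The median at 8 weeks was 0.0381 with no filter and -0.0554 with 10000 genes. The 4-week hypothalamus count was 1 with no filter, trend and robust, array weights or only 6 arrays (1.85% to 2.08% against 2.1% to 2.74% of genes). It was also 1 of the 19 tested with 10000 genes (5.26% against 3.05%), and 3 by the methods' t-test (6.25% against 2.75%). At 8 weeks it was 2 of 19 with 10000 genes (10.5% against 7.7%) and 1 by the methods' t-test (2.08% against 5.83%). Without the block for shared animals, 1 member differed between cortex and hypothalamus at 4 weeks. The cause of these shifts was not tested.

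With the replicate block, the cortex had 1 member called at 4 weeks and 1 at an unadjusted p under 0.05 at 8 weeks. Like-numbered cortex arrays correlated between -0.06 and 0.08, so that these numbers are not taken as pairs. In the hypothalamus at 8 weeks the correlations were 0.197 to 0.296, but the labels give no pairing there either. The block, which fits 1 effect per replicate number across both times, called 2 of all genes and 0 members there. It is not a paired test of the 8-week arrays.

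With each array left out in turn, 0 to 9 members were called in the cortex at 4 weeks and 0 to 1 for the hippocampus interaction, and 0 in every other comparison within a tissue. Counts at an unadjusted p under 0.05 ranged from 5 to 13 and 0 to 2 for the 4- and 8-week cortex, 2 to 9 and 4 to 10 in the hippocampus, and 0 to 3 and 1 to 11 in the hypothalamus. Medians ranged from 0.14 to 0.24 and -0.10 to 0.04 in the cortex, 0.06 to 0.18 and 0.08 to 0.14 in the hippocampus, and -0.11 to 0.0261 and -0.0024 to 0.08 in the hypothalamus.

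Directions reversed for Dnah1 in the hypothalamus at 4 weeks with the highest-variance probe set (0.0726) and for Tmem212 there with centring (0.0049) and quantile normalization (0.014). Without single arrays, Tmem212 in the cortex at 8 weeks ranged from -0.19 to 0.33. In the hypothalamus at 4 weeks, Ccdc153 ranged from -0.19 to 0.22, with 0.22 without the cKO replicate 3 and 0.06 without the control replicate 2. Tmem212 ranged from -0.26 to 0.24, with 0.24, 0.13 and 0.069 without the cKO replicate 3, the control replicate 2 and the control replicate 3.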

Other observations

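Where a member had other probe sets above the floor of the filter, the sign of the difference between cKO and control was shared by 7 of 13 of them in the cortex at 4 weeks and 8 of 13 at 8 weeks, by 7 of 14 and 8 of 14 in the hippocampus, and by 7 of 15 and 8 of 15 in the hypothalamus.

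Between tissues of different mice, 26 of 31 members had the same sign in cortex and hippocampus at 4 weeks (83.9% against 54.1% of all genes), and 13 of 31 at 8 weeks (41.9% against 56.0%). At 4 weeks 33 of 38 members in the cortex and 28 of 36 in the hippocampus were higher in cKO. The share of like signs follows in large part from these counts. For hippocampus and hypothalamus it was 11 of 36 at 4 weeks (30.6% against 46.5%) and 24 of 36 at 8 weeks (66.7% against 48.3%).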
